A study of Mus musculus with 153 samples.

Results

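The ribosome-bound RNA of Camk2a and Pvalb neurons was compared in the dorsal hippocampus of mice kept in the home cage. The comparison used the 17 purified home cage libraries of these lines, out of 153 samples in the series. Home cage mice served as the controls of a study in which other mice met a new context or were shocked in it. In translating ribosome affinity purification (TRAP), Cre recombinase switches on a tagged ribosomal protein, and the tagged ribosomes are pulled out of the tissue with the RNA they carry. The Camk2a group was Camk2a.Cre/TRAPfl, with 7 purified libraries, 3 from a set labelled 15 min and 4 from a set labelled 60 min. The Pvalb group was Pvalb.Cre/TRAPfl, with 10 purified libraries, 4 from the 15 min set and 6 from the 60 min set. Both groups carried the floxed TRAP allele, were untreated, and are biological replicates per the study's design text. Age is not given in the labels. Total lysates of the same kind of tissue, 7 from Camk2a mice and 9 from Pvalb mice, were used as a check on differences between the tables. Either driver marks every cell in which its promoter was active, so neither group is 1 cell type by construction.

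Camk2a encodes the alpha subunit of calcium/calmodulin-dependent protein kinase II, which is abundant in the glutamatergic pyramidal and granule cells of the hippocampus. Pvalb encodes parvalbumin, a calcium buffer of fast-spiking GABA interneurons, the basket and axo-axonic cells that inhibit the soma and axon of pyramidal cells. Fast-spiking cells are known for narrow action potentials, rapid transmitter release, high energy use and the perineuronal nets around them.

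Depth was high in every purified library, with 52848766 to 106721928 counts in Camk2a libraries and 76424003 to 204139576 counts in Pvalb libraries. The 4 tables share 22654 genes, and 15585 of them had enough counts to be tested in the purified libraries. CPM, a gene's counts scaled to the library's total over the 22654 shared genes, are given for single libraries. A log2 fold change is Camk2a over Pvalb, with the time set as a covariate, from edgeR's quasi-likelihood test. Adjusted p-values are Benjamini-Hochberg values over all genes tested in a comparison. By their Y-linked genes, 5 of 7 purified Camk2a libraries and 5 of 10 purified Pvalb libraries came from males. The Camk2a 15 min table lists fewer genes than the others, 23366 against 24391, and stands apart in its lysates, as described with the time sets.

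Both drivers' own genes and their partners followed the labels in the 17 purified libraries. Camk2a read 499, 1117 and 1520 CPM in Camk2a libraries (lowest, median and highest), against 154, 261 and 453 CPM in Pvalb libraries. Its log2 fold change was 1.85 ± 0.24 (SE; adjusted p = 4.73e-06), and the groups did not overlap. Slc17a7 (chr7:45163949-45176142, plus strand), the vesicular glutamate transporter of hippocampal excitatory cells, read 819, 1824 and 2577 CPM in Camk2a libraries, against 127, 208 and 286 CPM in Pvalb libraries. It was higher in Camk2a libraries by 3.07 ± 0.26 (adjusted p = 2.16e-08). Both excitatory markers were thus higher in each Camk2a library than in any Pvalb library. Glutamate genes as a list did not go this way. Of 11 genes of glutamate synthesis and transport 1 was higher and 6 lower in Camk2a libraries at an adjusted p under 0.05 (median -0.90). Over all genes tested 19.2% were higher and 22.6% lower. The part of glial RNA in the count of this list was not tested. Pvalb (chr15:78191114-78206400, minus strand) read 4.62, 6.02 and 28.6 CPM in Camk2a libraries, against 590, 765 and 916 CPM in Pvalb libraries, a log2 fold change of -6.17 ± 0.40 (adjusted p = 1.37e-09). Gad1 (chr2:70553072-70602014, plus strand), which makes GABA from glutamate, read 37.2, 79.9 and 187 CPM in Camk2a libraries, against 2300, 2931 and 3921 CPM in Pvalb libraries. Its log2 fold change was -5.05 ± 0.35 (adjusted p = 2.59e-09). The 2 inhibitory markers were far apart in the 2 lines, with the highest Camk2a library below the lowest Pvalb library for each.

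The markers were also set against each line's own lysate. The mean of Pvalb in purified Camk2a libraries lay 1.82 log2 units below the Camk2a lysates (log2 -1.82), while in purified Pvalb libraries it lay 5.37 units above the Pvalb lysates. Gad1 stood 2.30 units below its lysate in the Camk2a line (log2 -2.30) and 3.01 units above it in the Pvalb line. The excitatory markers stood the other way. Camk2a lay 0.64 log2 units above the lysate in the Camk2a line and at -1.68 in the Pvalb line, and Slc17a7 at 0.79 in the Camk2a line and -2.50 in the Pvalb line.

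**Figure D1:**
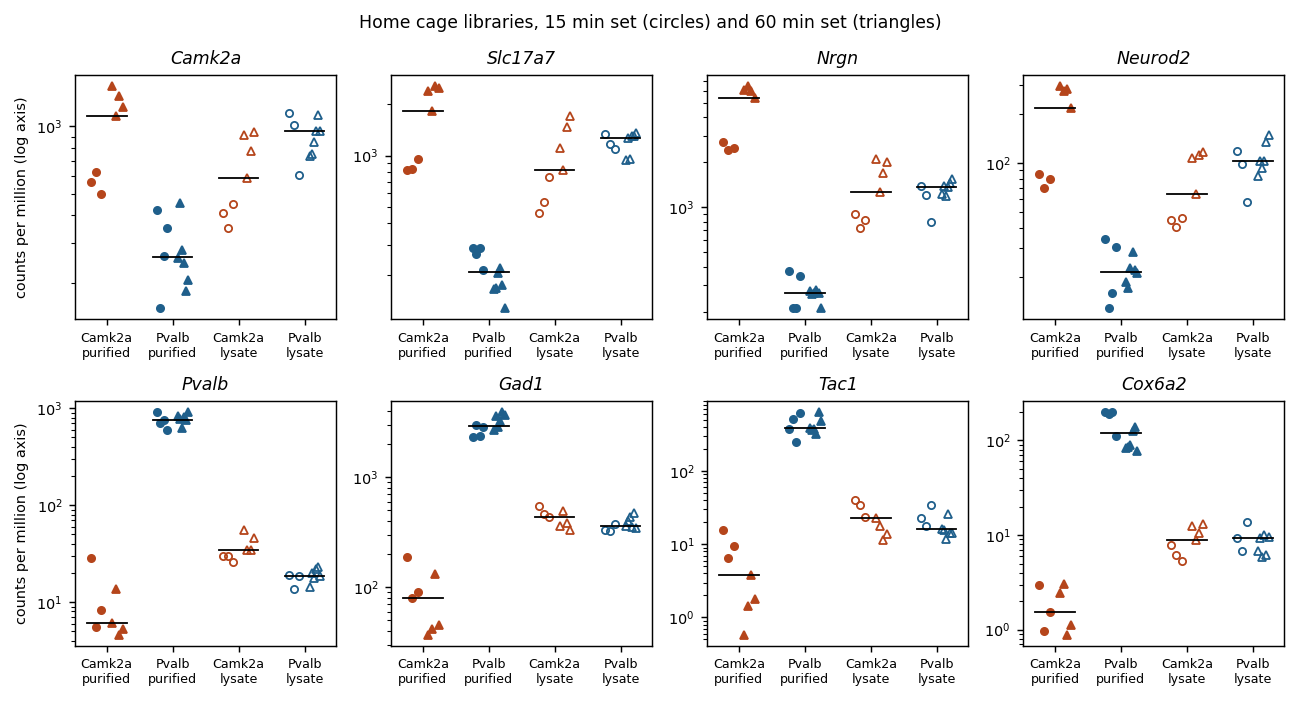
CPM (log axis) of 4 genes higher in Camk2a libraries (top) and 4 genes lower in them (bottom), in purified libraries (filled) and lysates (open), with the Camk2a line left of the Pvalb line. Each point is 1 library, bars are medians, and the purified groups do not overlap for any of the 8 genes.

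4 promoters are shown because their genes head the contrast: Nrgn had the largest fold change of the higher genes named here, Slc17a7 and Gad1 serve glutamate and GABA transmission, and Crhbp had one of the largest differences the other way. They are RefSeq sequences of GRCm38.p6, from 250 bases before to 50 bases after the annotated start, written 5′ to 3′ on the gene's strand. Capitals mark matches, on either strand, to the letters GGGCGG (SP1 box), TATAAA (core promoter box), CAGATG (an E-box bound by NeuroD factors), TAATTA (homeodomain core) and AAGGTCA (half-site of estrogen-related receptors). Of the 104 genes for which values were tabulated for the text, 84 had a promoter entry.
Nrgn (chr9:37552696-37552995, minus strand): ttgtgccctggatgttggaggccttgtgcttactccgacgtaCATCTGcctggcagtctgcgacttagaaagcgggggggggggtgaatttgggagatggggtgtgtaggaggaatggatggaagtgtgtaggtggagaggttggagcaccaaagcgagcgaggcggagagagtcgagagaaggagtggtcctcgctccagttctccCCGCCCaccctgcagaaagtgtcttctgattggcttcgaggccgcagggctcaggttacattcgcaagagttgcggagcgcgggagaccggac
Slc17a7 (chr7:45163671-45163970, plus strand): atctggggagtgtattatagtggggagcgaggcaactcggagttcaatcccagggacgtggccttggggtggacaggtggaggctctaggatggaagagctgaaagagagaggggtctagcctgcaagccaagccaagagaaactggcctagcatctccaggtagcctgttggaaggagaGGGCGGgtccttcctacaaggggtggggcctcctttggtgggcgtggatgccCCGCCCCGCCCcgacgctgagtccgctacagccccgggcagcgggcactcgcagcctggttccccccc
Gad1 (chr2:70561879-70562178, plus strand): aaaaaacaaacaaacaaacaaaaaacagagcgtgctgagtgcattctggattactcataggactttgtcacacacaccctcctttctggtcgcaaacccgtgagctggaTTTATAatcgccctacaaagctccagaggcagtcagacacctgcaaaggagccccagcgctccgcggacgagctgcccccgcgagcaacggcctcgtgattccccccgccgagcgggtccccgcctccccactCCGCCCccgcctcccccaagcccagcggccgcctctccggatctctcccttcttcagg
Crhbp (chr13:95444782-95445081, minus strand): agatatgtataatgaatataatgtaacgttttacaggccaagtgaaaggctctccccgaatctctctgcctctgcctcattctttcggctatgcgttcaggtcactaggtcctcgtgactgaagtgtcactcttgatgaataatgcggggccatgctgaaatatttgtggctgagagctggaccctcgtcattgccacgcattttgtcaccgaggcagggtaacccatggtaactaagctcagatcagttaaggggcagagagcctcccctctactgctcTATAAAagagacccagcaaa

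The Slc17a7 window holds 3 GGGCGG matches, the last 2 overlapping, and its GC content is 63.7%. Nrgn holds 1 GGGCGG match and 1 CAGATG match, at a GC content of 59.3%. Gad1 holds 1 GGGCGG and 1 TATAAA match at 60% GC, and Crhbp holds 1 TATAAA match, downstream of the start, at 48% GC. GGGCGG was found in 35.7% of all 32851 promoters and in 58.7% of those of tested genes. It was found in 64.2% of promoters of genes higher in Camk2a neurons by the strong criteria given next, and in 55.7% of promoters of genes lower by them. CAGATG was found in 10.7% of the higher and 12.7% of the lower promoters, against 12.4% of those of tested genes. TATAAA was found in 4.55% of the higher and 9.75% of the lower promoters, against 7.86% of those of tested genes. For TAATTA these shares were 2.1%, 3.11% and 2.93%, and for AAGGTCA 2.1%, 3.45% and 3.42%. These are descriptions of the windows, with no test.

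Across all genes, 2986 of 15585 (19.2%) were higher and 3522 (22.6%) were lower in purified Camk2a libraries at an adjusted p under 0.05, which together is 41.8% of the genes tested. The shares of 19.2% higher and 22.6% lower are the background for each list count given below. Because calls were that frequent, a stricter criterion was added. A strong call also had a fold change of at least 2 and no overlap between the groups. It was met by 560 higher genes (3.59%) and 1141 lower genes (7.32%). Of these, 496 higher and 880 lower genes were also called in each time set on its own, in the same direction. Of all genes, 6.41% were so called for higher and 7.01% for lower. The sets are parts of the libraries that gave the strong calls, so these counts are not independent of the selection. In the test of the purified difference minus the lysate difference, where 40% of genes were called (20.5% higher and 19.5% lower), 551 higher and 1074 lower strong genes passed in the same direction. A total of 1265 genes (8.12%), 466 higher (2.99%) and 799 lower (5.13%), held in both sets, in purified minus lysate and with offsets for GC content and gene length, and were not called in the lysates in the same direction. These are called firm, and every gene named with values from here on is firm unless it is said otherwise. No overlap between the lines, seen in 12.8% of genes tested, is a condition of this, so for firm genes it is no separate result.

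The sets disagreed in how many genes they called. The 15 min set gave 1874 higher (13.1%) and 1996 lower (14%) genes of 14288, together 27.1%, and the 60 min set 4053 higher (27.6%) and 4450 lower (30.3%) of 14676, together 57.9%. The log2 fold changes of the sets had a Pearson r of 0.502 across 14046 genes, which are not independent replicates and share the lines' tables. No strong gene had opposite signs in the sets, which the no-overlap condition of a strong call largely fixes in advance.

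**Figure D2:**
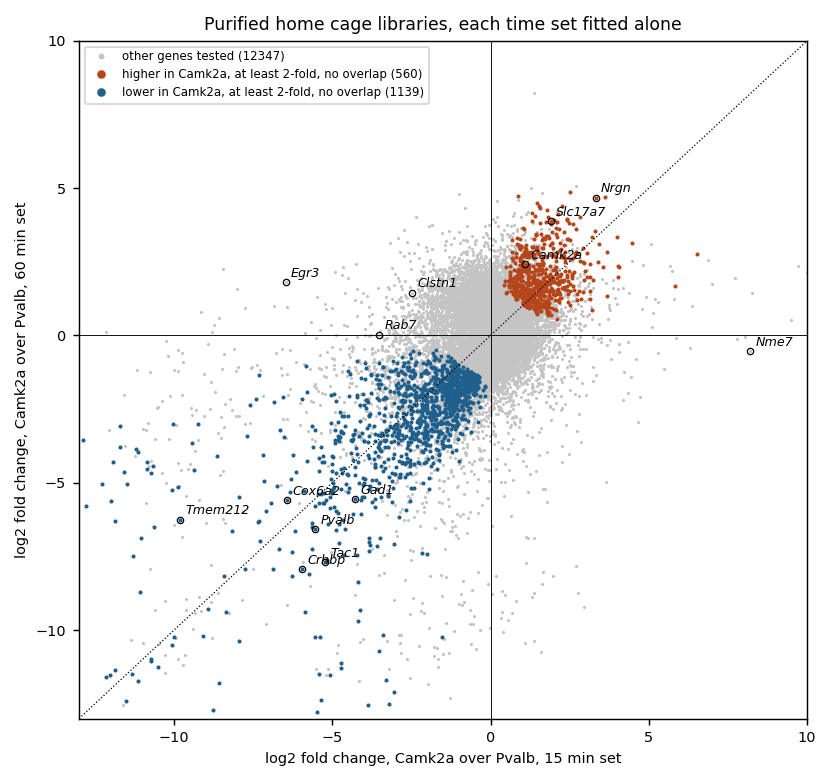
Log2 fold change, Camk2a over Pvalb, in the 15 min set (x axis) and the 60 min set (y axis), each fitted alone, for genes tested in both. Red and blue points are strong higher and lower genes, and lie in the upper right and lower left quadrants, which the no-overlap criterion largely fixes. 14 genes fall outside the axes.

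RNA of other cell types differed between the purified lines and is given here beside the lower genes. Over 64 glial and vascular markers, the mean level on a log2 scale was 2.42 to 2.88 in Camk2a libraries, against 4.23 to 4.80 in Pvalb libraries, with no overlap. All 12 oligodendrocyte markers were lower in Camk2a libraries, as were 10 of 12 astrocyte, 9 of 11 endothelial and 7 of 12 microglial markers, and none was higher. The summed astrocyte list was 433, 742 and 967 CPM in Camk2a libraries, against 2183, 2604 and 3042 CPM in Pvalb libraries, and about 4921 to 6489 CPM in lysates of either line. Gja1, the astrocytic gap junction protein connexin 43, read 8.23, 27.3 and 61.4 CPM in Camk2a libraries, against 154, 229 and 319 CPM in Pvalb libraries (log2 fold change -2.96 ± 0.33, adjusted p = 8.70e-07). In either line it lay below its own lysate, with a log2 difference of -0.59 in Pvalb libraries.

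No marker of these lists was at 0 in all libraries of a line. The median endothelial marker lay 2.26 log2 units below the lysate in the Camk2a line (log2 -2.26), but 0.125 units above it in the Pvalb line. Summed, it was 47.6, 63.7 and 70.5 CPM in Camk2a libraries, against 232, 348 and 510 CPM in Pvalb libraries. The choroid plexus and ependyma list varied by library in both lines, at 16.4, 69.6 and 1058 CPM in Camk2a libraries and 138, 799 and 5413 CPM in Pvalb libraries. Foxj1, a factor for motile cilia, was low in both, at 0, 0.517 and 1.83 CPM, against 5.20, 8.44 and 16 CPM (-3.95 ± 0.66, adjusted p = 8.81e-05). Tmem212, another gene of that list, read 0, 0.171 and 1.74 CPM, against 49.5, 74.9 and 107 CPM (-7.38 ± 0.74, adjusted p = 2.26e-07), and in Pvalb libraries its mean was 2.40 log2 units above the lysate. In these bulk libraries fewer cells of a type and less RNA per cell cannot be told apart. Line and glial level are separated completely, so a model with both could not tell them apart: with the glial and vascular mean as a covariate 1 gene was called. Where a gene's level is set against its own lysate, this is a description, since the median endothelial marker and Tmem212 also lay above the lysate in the Pvalb line.

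**Figure D3:**
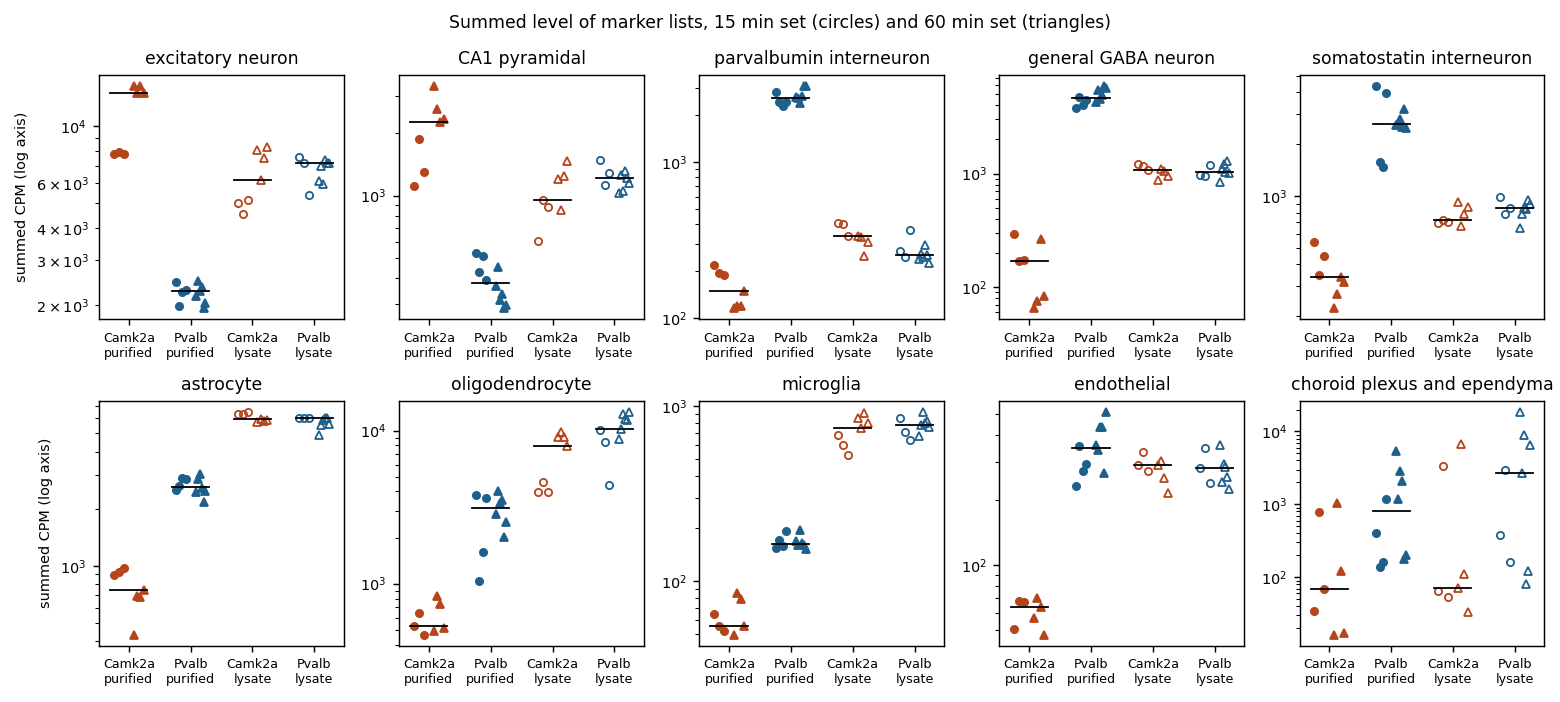
Summed CPM (log axis) of 10 marker lists in purified libraries (filled) and lysates (open), Camk2a left of Pvalb, with bars at medians. Neuronal lists separate the purified lines in opposite directions, and the astrocyte, oligodendrocyte, microglial and endothelial sums are lower in all purified Camk2a libraries than in any purified Pvalb library.

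Among the genes that led the Camk2a side by p, several bind calcium or calmodulin. Nrgn, neurogranin, which holds calmodulin in dendrites, read 2396, 5340 and 6500 CPM in Camk2a libraries, against 211, 267 and 376 CPM in Pvalb libraries. Its log2 fold change was 4.09 ± 0.20 (adjusted p = 7.34e-11). Hpca, the neuronal calcium sensor hippocalcin, read 2866, 6208 and 9494 CPM, against 412, 618 and 932 CPM (3.24 ± 0.21, adjusted p = 1.37e-09). Hpcal4, a related calcium sensor, was higher by 2.60 ± 0.14 (adjusted p = 1.25e-10), at 895, 1125 and 1407 CPM against 159, 192 and 292 CPM. For all 3 genes the lines did not overlap, as the firm criteria require. Dkk3, a secreted member of the Dickkopf family, read 630, 748 and 828 CPM against 113, 132 and 185 CPM (2.51 ± 0.13, adjusted p = 7.34e-11). For Dkk3 the sets were close, at 2.51 in the 15 min set and 2.59 in the 60 min set.

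On the Pvalb side the leading genes were of many kinds. Nacc2, a transcriptional repressor with a BTB domain, read 10.9, 15.3 and 17.4 CPM in Camk2a libraries, against 138, 180 and 190 CPM in Pvalb libraries (-3.49 ± 0.15, adjusted p = 1.54e-11). Mxra7, named for matrix remodelling, read 1.85, 4.76 and 5.61 CPM, against 117, 192 and 270 CPM (-5.23 ± 0.25, adjusted p = 5.73e-11). Pcp4l1, a relative of the calmodulin regulator PCP4, read 22, 43.5 and 56.1 CPM, against 345, 559 and 700 CPM (-3.62 ± 0.20, adjusted p = 3.09e-10). In each case the highest Camk2a library was several-fold under the lowest Pvalb library. Adssl1, an adenylosuccinate synthase of purine nucleotide metabolism, was at 2.15, 4.62 and 10.1 CPM against 101, 127 and 199 CPM (-4.75 ± 0.28, adjusted p = 5.99e-10). Crhbp, which binds corticotropin-releasing hormone, was at 1.74, 4.07 and 12 CPM against 483, 672 and 827 CPM (-7.09 ± 0.42, adjusted p = 6.40e-10). Vstm2a read 65.3, 94.2 and 114 CPM in Camk2a libraries and 454, 552 and 760 CPM in Pvalb libraries (-2.57 ± 0.16, adjusted p = 7.22e-10). Crhbp stood 3.42 log2 units below its lysate in Camk2a libraries (log2 -3.42) and 3.56 above it in Pvalb libraries.

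The transcription factors split by lineage. Of 22 factors of excitatory neurons, 15 were higher and 3 lower in Camk2a libraries, with a median log2 fold change of 1.23, where the median of all genes tested was -0.13. Of 18 interneuron factors, 12 were lower and 2 higher, with a median of -3.64. Mef2c and Bcl11b are in both lists. Neurod2, a bHLH factor of pyramidal and granule cells, read 69.9, 218 and 297 CPM in Camk2a libraries, against 12.9, 21.7 and 34.4 CPM in Pvalb libraries (3.02 ± 0.28, adjusted p = 7.97e-08). Its relative Neurod6 was higher by 1.95 ± 0.15 (adjusted p = 6.55e-09), at 353, 512 and 567 CPM against 81.4, 135 and 174 CPM. Bcl11a, a zinc finger repressor, was higher by 2.11 ± 0.15 (adjusted p = 2.43e-09). The 2 NeuroD factors and Bcl11a did not overlap between the lines, which is part of being firm.

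Lhx6, the LIM homeodomain factor of interneurons born in the medial ganglionic eminence, read 0.0668, 1.92 and 3.35 CPM in Camk2a libraries, against 114, 137 and 157 CPM in Pvalb libraries (-6.17 ± 0.53, adjusted p = 2.82e-08). Sox6, which acts after Lhx6 in that lineage, was at 0, 1.37 and 3.0 CPM against 25.5, 43.1 and 66.6 CPM (-4.67 ± 0.55, adjusted p = 1.55e-06). Maf, a bZIP factor of the same lineage, was lower by 5.57 log2 units (-5.57 ± 0.60, adjusted p = 5.61e-07). All 3 of these lineage factors lay below their lysate in Camk2a libraries and above it in Pvalb libraries, where the distance was 1.92 to 2.53 log2 units. Mef2c, an activity-regulated factor, was lower in Camk2a libraries, at 57.6, 141 and 196 CPM against 393, 489 and 595 CPM (-1.83 ± 0.20, adjusted p = 7.27e-07). Id4, which inhibits bHLH factors and is also strong in astrocytes, was lower by 2.98 log2 units (-2.98 ± 0.31, adjusted p = 3.71e-07) and in Pvalb libraries was near its lysate (0.04 log2 units).

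GABA handling was mostly on the Pvalb side. Of 9 tested genes of GABA synthesis and transport 7 were lower in Camk2a libraries, none was higher and 2 did not pass. All 11 tested general GABA neuron markers were lower in Camk2a libraries, with a median log2 fold change of -4.92, and all 11 were strong and firm. Gad2, the second GABA-synthesizing enzyme, read 6.45, 27.9 and 45.4 CPM in Camk2a libraries, against 376, 601 and 820 CPM in Pvalb libraries (-4.56 ± 0.44, adjusted p = 1.51e-07). Slc32a1, which loads GABA into vesicles, read 0.961, 1.68 and 9.61 CPM, against 63.4, 89.6 and 155 CPM (-4.68 ± 0.48, adjusted p = 2.74e-07). Both Gad2 and Slc32a1 were separated in every library, which follows from their being firm.

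Of 15 tested parvalbumin interneuron markers 13 were lower in Camk2a libraries and none was higher (median -5.70). Tac1, the precursor of substance P, read 0.584, 3.75 and 15.7 CPM in Camk2a libraries, against 249, 385 and 643 CPM in Pvalb libraries (-6.61 ± 0.55, adjusted p = 2.16e-08). Pthlh, parathyroid hormone-like hormone, read 0, 0.475 and 1.85 CPM, against 28.5, 70.4 and 130 CPM (-6.88 ± 0.75, adjusted p = 6.67e-07). Erbb4, the neuregulin receptor of interneurons, read 0, 0.114 and 0.899 CPM, against 5.04, 21.9 and 30.7 CPM (-5.70 ± 0.80, adjusted p = 1.41e-05). These folds rest on few counts in Camk2a libraries. Akr1c18, an aldo-keto reductase that inactivates progesterone, read 0, 0.0334 and 5.19 CPM in Camk2a libraries, against 42.9, 291 and 383 CPM in Pvalb libraries. Its Pvalb mean lay 4.95 log2 units above the Pvalb lysates, and its fitted log2 fold change was -7.85 ± 1.20 (adjusted p = 3.72e-05).

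Markers of other interneurons did not go one way. Of 11 tested somatostatin interneuron markers 7 were lower in Camk2a libraries and none was higher. Sst itself, the somatostatin precursor, read 36.6, 58.8 and 95.3 CPM in Camk2a libraries, against 186, 330 and 1034 CPM in Pvalb libraries (-2.68 ± 0.28, adjusted p = 4.06e-07), and its Pvalb mean was 0.69 log2 units above the lysate. Npy, neuropeptide Y, read 26.2, 29.1 and 41.0 CPM, against 198, 1012 and 1839 CPM (-4.90 ± 0.42, adjusted p = 2.77e-08). Cort, cortistatin, read 0.960, 1.77 and 2.57 CPM, against 76.6, 135 and 450 CPM (-6.46 ± 0.46, adjusted p = 2.73e-09). These 3 peptides were lower in every Camk2a library, with a wide range among Pvalb libraries. In the Pvalb 15 min set, replicates 1 and 4 stood above replicates 2 and 3 for all 3 genes. Npy read 1839 and 1586 CPM against 239 and 198 CPM. Sst read 1034 and 912 CPM against 327 and 315 CPM, and Cort 450 and 335 CPM against 79.5 and 86.1 CPM. By their Y-linked genes, replicates 1 and 4 came from females and replicates 2 and 3 from males. The cause of this split was not tested.

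Of 16 markers of interneurons from the caudal ganglionic eminence, 6 were lower and 3 higher in Camk2a libraries. The median log2 fold change of this list was -0.905, and 11 of 16 members were negative. The lower members are not given singly here, so the higher genes described next do not stand for the list. Cck, cholecystokinin, read 832, 1318 and 2335 CPM in Camk2a libraries, against 116, 178 and 301 CPM in Pvalb libraries (3.0 ± 0.22, adjusted p = 3.86e-09). Penk, the enkephalin precursor, read 56.5, 97.6 and 105 CPM, against 16.2, 24.8 and 35.2 CPM (2.02 ± 0.15, adjusted p = 6.44e-09). Lamp5, a lysosome-associated membrane protein, read 42.8, 69.3 and 129 CPM, against 17.5, 33.2 and 42.5 CPM (1.26 ± 0.19, adjusted p = 2.62e-05). Vip, the peptide of a separate interneuron class, did not pass, at 0.267, 3.88 and 15.9 CPM in Camk2a libraries and 4.13, 6.15 and 24.5 CPM in Pvalb libraries (-1.0 ± 0.48, adjusted p = 0.100). It was below its lysate in both lines.

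The Camk2a libraries held genes of each hippocampal field. Of 10 CA1 markers 7 were higher and none lower (median log2 fold change 2.65), of 13 CA3 and CA2 markers 8 were higher and 1 lower (median 1.18), and of 11 dentate granule markers 5 were higher and 1 lower (median 1.14). Fibcd1 and Spink8, enriched in CA1, were higher by 3.36 ± 0.42 (adjusted p = 3.20e-06) and 2.64 ± 0.18 (adjusted p = 2.09e-09). Fibcd1 read 53.9, 319 and 472 CPM in Camk2a libraries, against 13.4, 23.1 and 48.8 CPM in Pvalb libraries, and Spink8 127, 252 and 310 CPM against 31.3, 39.0 and 51.6 CPM. Rgs14, a G protein regulator of CA2, was higher by 2.71 ± 0.20 (adjusted p = 6.55e-09) and Bok, a Bcl-2 family member of CA3, by 2.11 ± 0.24 (adjusted p = 9.15e-07). C1ql2, a secreted protein of granule cells, read 83.0, 315 and 473 CPM against 21.1, 35.9 and 68.3 CPM (2.88 ± 0.35, adjusted p = 2.17e-06). Being firm, these 5 genes by definition did not overlap between the lines.

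Voltage-gated channel genes were called in both directions. Of 53 potassium channel genes tested, 22 were higher and 16 lower in Camk2a libraries. Kcnc1 and Kcnc2 encode Kv3 channels, which repolarize fast action potentials. Kcnc1 read 26.6, 46.5 and 51.1 CPM in Camk2a libraries, against 163, 189 and 242 CPM in Pvalb libraries (-2.16 ± 0.16, adjusted p = 5.57e-09). Kcnc2 read 33.4, 54.6 and 159 CPM, against 654, 973 and 1353 CPM (-3.71 ± 0.27, adjusted p = 5.28e-09). The silent subunits Kcng4 and Kcns3, which modify other potassium channels, were lower by 5.46 and 3.53 log2 units (Kcng4 -5.46 ± 0.56, adjusted p = 2.83e-07; Kcns3 -3.53 ± 0.33, adjusted p = 1.15e-07). Kcng4 was at 0, 1.41 and 2.69 CPM against 30.7, 69.4 and 121 CPM. Kcnip1, a calcium-binding partner of Kv4 channels, was at 10.4, 16.8 and 23.9 CPM against 131, 255 and 340 CPM (-3.69 ± 0.26, adjusted p = 2.63e-09).

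Of 13 sodium channel genes 3 were higher and 3 lower, near the share over all genes (19.2% higher and 22.6% lower). Scn1a, the alpha subunit Nav1.1 of interneuron axons, read 25.3, 43.4 and 49.0 CPM in Camk2a libraries, against 209, 251 and 356 CPM in Pvalb libraries (-2.66 ± 0.18, adjusted p = 1.69e-09). Scn2a1, the symbol in these files for the alpha subunit Nav1.2, was higher by 0.91 ± 0.21 (adjusted p = 0.00166), and its libraries overlapped, so it was neither strong nor firm. Scn3b, a beta subunit, read 307, 443 and 809 CPM against 54.1, 126 and 194 CPM (2.17 ± 0.26, adjusted p = 2.10e-06), and was also higher in Camk2a lysates by 0.52 (adjusted p = 0.0412), so it was strong but not firm. Fgf12, an intracellular factor that binds sodium channels, read 68.8, 158 and 275 CPM against 747, 962 and 1234 CPM (-2.55 ± 0.25, adjusted p = 1.66e-07).

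Of 22 calcium and HCN channel genes 8 were higher and 6 lower, beside 19.2% higher and 22.6% lower over all genes. The auxiliary subunits parted: Cacna2d1 and Cacnb3 were higher in Camk2a libraries by 1.59 ± 0.18 (adjusted p = 1.01e-06) and 2.20 ± 0.25 (adjusted p = 8.67e-07), while Cacna2d2 was lower (-3.39 ± 0.39, adjusted p = 1.17e-06). Cacna2d2 read 0.653, 1.14 and 4.81 CPM in Camk2a libraries, against 17.5, 23.8 and 30.7 CPM in Pvalb libraries.

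AMPA receptor subunits differed in kind. Gria4, the GluA4 subunit of fast currents in interneurons, read 3.40, 13.4 and 37.6 CPM in Camk2a libraries, against 124, 164 and 228 CPM in Pvalb libraries (-3.34 ± 0.39, adjusted p = 1.73e-06). Gria2, the subunit that makes AMPA receptors impermeable to calcium, read 490, 557 and 998 CPM, against 245, 335 and 387 CPM (1.14 ± 0.17, adjusted p = 2.94e-05). For Gria1 the test did not pass, at 469, 519 and 698 CPM in Camk2a libraries and 428, 520 and 641 CPM in Pvalb libraries (0.24 ± 0.11, adjusted p = 0.0878). The subunits thus ran in different directions in the same libraries. Cacng2, the auxiliary protein stargazin, was lower (-1.07 ± 0.16, adjusted p = 3.08e-05), and Grin2b, an NMDA receptor subunit, was higher by 1.5 ± 0.12 (adjusted p = 1.68e-08).

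Among 15 tested GABA receptor genes 4 were higher and 7 lower, beside 19.2% higher and 22.6% lower over all genes. Gabra5, the alpha subunit of tonic currents in pyramidal cells, read 234, 279 and 327 CPM in Camk2a libraries, against 64.8, 86.1 and 104 CPM in Pvalb libraries (1.77 ± 0.12, adjusted p = 1.45e-09). Chrm1, the M1 muscarinic receptor, read 164, 413 and 455 CPM against 53.0, 67.6 and 88.1 CPM (2.24 ± 0.19, adjusted p = 2.02e-08).

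Calmodulin signalling and the postsynaptic density were mostly on the Camk2a side. Of 25 genes of the CaM kinase and calmodulin pathway 20 were higher and 2 lower in Camk2a libraries (median 0.99), and of 27 postsynaptic scaffold genes 18 were higher and 4 lower (median 1.11). Itpka, an inositol trisphosphate kinase of dendritic spines, read 373, 879 and 1380 CPM in Camk2a libraries, against 70.6, 98.0 and 208 CPM in Pvalb libraries (2.84 ± 0.28, adjusted p = 1.53e-07). Camkv, a kinase-like protein that binds calmodulin, read 332, 888 and 1091 CPM, against 75.7, 124 and 216 CPM (2.62 ± 0.27, adjusted p = 2.80e-07). Rcan2, an inhibitor of the calmodulin-dependent phosphatase calcineurin, was 1 of the 2 exceptions, at 14.9, 27.1 and 78.3 CPM in Camk2a libraries against 759, 1017 and 1183 CPM in Pvalb libraries (-4.63 ± 0.33, adjusted p = 2.97e-09). Ddn, dendrin of the postsynapse, read 1127, 1570 and 2492 CPM against 199, 330 and 457 CPM (2.46 ± 0.19, adjusted p = 7.87e-09). Baiap2, an adaptor that shapes spine actin, and Synpo, synaptopodin of the spine apparatus, were higher by 3.0 ± 0.29 (adjusted p = 1.51e-07) and 2.10 ± 0.23 (adjusted p = 6.93e-07).

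Release proteins differed by isoform more than as a group. Of 43 vesicle release genes 17 were higher and 6 lower, with a median log2 fold change of 0.11. Complexins clamp and trigger vesicle fusion: Cplx2 read 879, 1142 and 1391 CPM in Camk2a libraries, against 158, 271 and 344 CPM in Pvalb libraries (2.26 ± 0.16, adjusted p = 2.59e-09). Cplx1 read 378, 486 and 517 CPM, against 1324, 1639 and 2064 CPM (-1.69 ± 0.12, adjusted p = 2.66e-09). Syt2, the fast calcium sensor of parvalbumin terminals, was at 0.284, 2.51 and 3.44 CPM against 11.5, 24.8 and 33.8 CPM (-3.16 ± 0.37, adjusted p = 1.55e-06). Syt1, the sensor of most forebrain terminals, did not pass (-0.22 ± 0.15, adjusted p = 0.230) and overlapped. Vamp1, a vesicle SNARE, was at 58.2, 79.2 and 116 CPM against 384, 578 and 713 CPM (-2.72 ± 0.18, adjusted p = 1.37e-09). The common vesicle SNARE Vamp2 was higher by 0.36 ± 0.10 (adjusted p = 0.00652) with overlap and was not strong. Sv2b and Sv2a, vesicle glycoproteins, went in opposite directions, at 1.70 ± 0.17 (adjusted p = 2.26e-07) and -0.79 ± 0.10 (adjusted p = 3.09e-06), though Sv2a was under the 2-fold limit. Rab3b, a vesicle GTPase, read 18.7, 57.8 and 88.8 CPM against 654, 817 and 1088 CPM (-3.93 ± 0.24, adjusted p = 7.58e-10).

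A set of 21 pairs of related genes was read together, with each gene's CPM divided by its exon length so that levels within a pair could be compared. In 11 pairs the first gene was higher and the second lower in Camk2a libraries, in none was it the reverse, and in 10 at most 1 gene was called. The pairs had been drawn up with earlier results known, so this order is a description. The share of the second gene did not overlap between the lines in 15 of 20 pairs with a length for both genes. On this per-length scale Cplx1 made up 45.1% to 50.3% of the sum of Cplx1 and Cplx2 in Camk2a libraries, against 89.9% to 95.1% in Pvalb libraries. Gria4 made up 1.66% to 8.51% of Gria2 plus Gria4 in Camk2a libraries, against 50% to 65.6% in Pvalb libraries. In both of these pairs the shares did not overlap between the lines. For Vamp1 the share of Vamp2 plus Vamp1 was small in both lines, 1.03% to 2.03% in Camk2a libraries and 8.31% to 13.3% in Pvalb libraries, so Vamp2 was the more abundant in both.

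**Figure D4:**
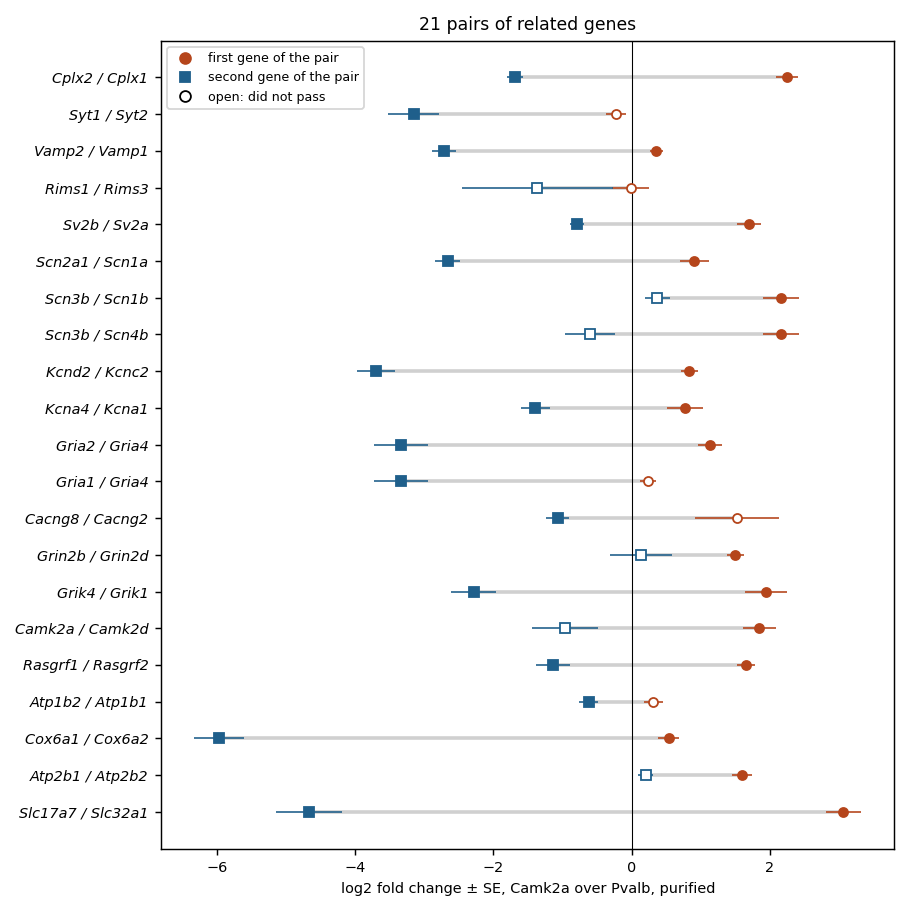
Log2 fold change ± SE, Camk2a over Pvalb, of the first (circles) and second gene (squares) of 21 pairs in purified libraries, open where the test did not pass. The second gene lies left of the first in all 21 pairs.

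Of 44 tested synaptic adhesion genes 15 were higher and 9 lower in Camk2a libraries, with a median log2 fold change of -0.06. Over all genes 19.2% were higher and 22.6% lower. By the strong criteria 2 were higher and 3 lower, and the genes described next, Cntnap4 and Cbln4, are among the lower ones. Cntnap4, a neurexin-like protein of GABA synapses, read 1.76, 4.31 and 11.1 CPM in Camk2a libraries, against 70.9, 118 and 159 CPM in Pvalb libraries (-4.38 ± 0.38, adjusted p = 2.86e-08). Cbln4, a cerebellin that bridges synapses, read 0.617, 3.75 and 16.6 CPM, against 48.1, 59.9 and 86.4 CPM (-3.63 ± 0.49, adjusted p = 8.58e-06). Nxph1, a ligand of alpha-neurexins, read 0.0334, 3.40 and 16.9 CPM, against 219, 335 and 385 CPM (-5.59 ± 0.65, adjusted p = 1.35e-06). All 3 were above the lysate in Pvalb libraries, by 2.58 to 3.03 log2 units. Of 22 tested genes of the perineuronal net and matrix 12 were lower and 3 higher in Camk2a libraries (median -1.84). Hapln1, which links hyaluronan to proteoglycans in the net, read 0.112, 2.93 and 5.64 CPM against 39.8, 70.3 and 114 CPM (-4.85 ± 0.56, adjusted p = 1.39e-06), and was 1.55 log2 units above the lysate in Pvalb libraries. Ptprz1, a phosphatase that is also a proteoglycan of glia, was lower as well (-2.89 ± 0.40, adjusted p = 1.03e-05), but in Pvalb libraries it was near its lysate (log2 -0.14). Several genes of this list are made by glia, and the part of glial RNA in its count was not tested. Gjd2, connexin 36 of electrical synapses between interneurons, read 0.187, 1.67 and 2.83 CPM against 37.3, 44.1 and 66.7 CPM (-5.01 ± 0.43, adjusted p = 2.78e-08).

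Energy genes differed by isoform. Of 21 genes of mitochondrial biogenesis and creatine use 10 were lower and 3 higher in Camk2a libraries, and of 17 citrate cycle genes 7 were lower and none higher. Respiratory complex I, with 7 of 37 higher and 10 lower, had a median log2 fold change of 0.06. Complexes II to V had one of -0.18, with 11 of 40 higher and 13 lower. Over all genes 19.2% were higher and 22.6% lower, and complex I was near these shares. Cox6a2, the muscle-type isoform of a cytochrome oxidase subunit, read 0.887, 1.53 and 3.03 CPM in Camk2a libraries, against 77.5, 119 and 200 CPM in Pvalb libraries (-5.98 ± 0.36, adjusted p = 6.44e-10). Its widespread partner Cox6a1 was higher by 0.54 ± 0.15 (adjusted p = 0.00869) with overlap, and was not firm. Per exon length, Cox6a2 was 0.0712% to 0.323% of both isoforms in Camk2a libraries, against 8.14% to 18.1% in Pvalb libraries, so Cox6a1 was the more abundant in both lines. Ppargc1a, the PGC-1 alpha coactivator of mitochondrial genes, read 12.8, 22.8 and 68.7 CPM against 114, 144 and 172 CPM (-2.08 ± 0.26, adjusted p = 4.31e-06). Esrrg, an estrogen-related receptor that works with it, read 4.30, 8.15 and 14.7 CPM against 61.7, 126 and 162 CPM (-3.66 ± 0.30, adjusted p = 1.77e-08). Both regulators and Cox6a2 lay above the lysate in Pvalb libraries, by 2.09 to 3.90 log2 units. Lactate dehydrogenase was split: Ldha read 416, 541 and 630 CPM in Camk2a libraries against 97.9, 153 and 243 CPM in Pvalb libraries (1.86 ± 0.16, adjusted p = 2.68e-08), and Ldhb 377, 597 and 751 CPM against 1624, 1852 and 2248 CPM (-1.61 ± 0.13, adjusted p = 1.94e-08). Mdh1, cytosolic malate dehydrogenase, was lower (-1.06 ± 0.10, adjusted p = 1.78e-07).

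Cytosolic ribosomal protein genes were called in 1 direction only. Of 63 tested 50 were higher in Camk2a libraries and none lower, with a median log2 fold change of 0.91, or 0.60 in the 15 min set and 1.43 in the 60 min set. The difference was moderate, as 9 of 63 were strong, against 3.59% of all genes. Against the own lysate the median member was 1.12 log2 units higher in Camk2a libraries and 0.04 in Pvalb libraries, and in the lysate comparison the median was -0.11. Rps28, of the small subunit, read 76.4, 87.0 and 129 CPM in Camk2a libraries, against 27.3, 32.5 and 37.6 CPM in Pvalb libraries (1.62 ± 0.12, adjusted p = 6.62e-09). Rps12 read 101, 146 and 191 CPM against 47.9, 56.4 and 71.7 CPM (1.39 ± 0.15, adjusted p = 3.67e-07). Ribosomal protein genes have many processed pseudogenes, which could share their reads, so single members are uncertain.

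Without any shock or new context, activity-regulated genes also differed. Of 27 rapid activity genes 12 were higher and 2 lower in Camk2a libraries (median 0.83). Egr1, a zinc finger factor induced by activity, read 173, 244 and 291 CPM in Camk2a libraries, against 38.3, 71.5 and 109 CPM in Pvalb libraries (1.87 ± 0.14, adjusted p = 6.33e-09). Junb, an AP-1 subunit, read 52.1, 128 and 153 CPM against 13.3, 22.1 and 27.9 CPM (2.26 ± 0.21, adjusted p = 1.10e-07). Arc, a regulator of AMPA receptor traffic, was higher by 2.36 ± 0.27 (adjusted p = 1.19e-06), though its ranges overlapped, at 52.8, 340 and 494 CPM and 21.3, 47.2 and 83.5 CPM, so it was not strong. Bdnf, a neurotrophin of excitatory cells, read 94.0, 104 and 129 CPM against 12.4, 31.7 and 43.4 CPM (2.06 ± 0.18, adjusted p = 4.64e-08). Glucocorticoid-responsive genes were mixed, with 6 of 14 higher and 4 lower. Fkbp5, a chaperone of the glucocorticoid receptor, was higher by 1.66 ± 0.18 (adjusted p = 7.23e-07), at 35.3, 60.2 and 80.5 CPM against 9.57, 19.1 and 31.4 CPM. Tsc22d3, the glucocorticoid-induced leucine zipper, was lower, at 57.5, 91.4 and 131 CPM against 336, 407 and 544 CPM (-2.14 ± 0.18, adjusted p = 2.08e-08). Dusp1, a phosphatase of MAP kinases, was lower as well (-1.59 ± 0.21, adjusted p = 7.36e-06).

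**Figure D5:**
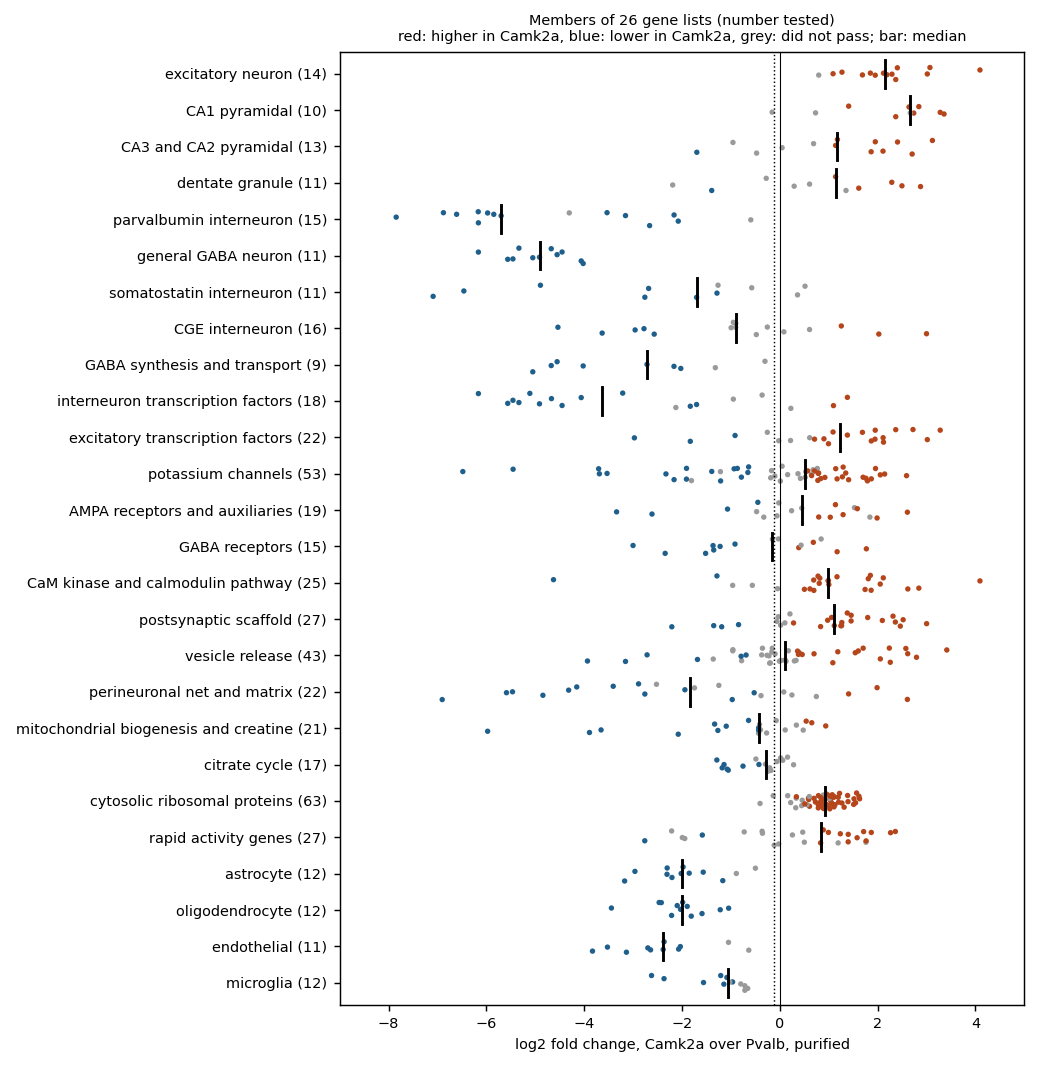
Log2 fold change, Camk2a over Pvalb, of each tested member of 26 gene lists in purified libraries, coloured by call, with a black bar at each list's median and a dotted line at the median of all genes tested, -0.13. Of the cytosolic ribosomal protein genes 61 lie above 0 and 2 under it, and potassium channel genes spread to both sides.

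Line differences were not of 1 size in the sets. The difference itself was tested: 5722 of 15585 genes (36.7%) had a log2 fold change that differed between the 60 min and the 15 min set, 2739 larger and 2983 smaller in the 60 min set. With offsets for GC content and gene length the number was 2895 of 14982 (19.3%). The purified libraries differed in how counts varied with GC content, and the slope, in log2 units per 10 percentage points, was -0.33 to -0.28 in Camk2a 15 min, -0.15 to 0.37 in Pvalb 15 min, 0.56 to 0.80 in Camk2a 60 min and -0.47 to -0.24 in Pvalb 60 min libraries. Among the markers, Slc17a7 differed by 1.91 between the sets (adjusted p = 1.24e-06), with fold changes of 1.90 at 15 min and 3.87 at 60 min, and Camk2a by 1.26 (adjusted p = 0.00942), with 1.10 and 2.42. The 3 Camk2a 15 min libraries, at 499 to 628 CPM, lay below the 4 Camk2a 60 min libraries, at 1117 to 1520 CPM, for the Camk2a gene. The Camk2a 15 min lysates were low for both markers as well. Camk2a read 351 to 451 CPM in them, against 590 to 1149 CPM in all other lysates. Slc17a7 read 460 to 749 CPM in them, against 818 to 1707 CPM in all other lysates. Home cage mice had no procedure, and the labels give the sets only as 15 min and 60 min. What the sets stand for in these mice is not given in the labels, and their difference cannot be told apart from that of the tables.

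In 4 further genes, none of them strong or firm, the difference between the sets also appeared in the lysates. Nme7, a nucleoside diphosphate kinase family member, read 2469 to 2898 CPM in purified Camk2a 15 min libraries, against 7.05 to 14.8 CPM in Pvalb 15 min libraries, but 6.02 to 8.40 CPM in Camk2a 60 min libraries. The Camk2a 15 min lysates also stood at 1194 to 1574 CPM, against 13.1 to 18.4 CPM in all other lysates, so both fractions showed the same shift. Its exons overlap those of Atp1b1 in the GENCODE M21 annotation, and reads of the 2 cannot be told apart. Egr3 was at 0.209 to 0.490 CPM in the purified Camk2a 15 min libraries and at 1.06 to 2.86 CPM in their lysates, against 64.3 to 126 CPM in all other lysates. Rab7 and Clstn1 were low in the same 3 lysates as well, by 2.98 and 2.10 log2 units against the other lysates (log2 -2.98 and -2.10). The interaction values of these 4 genes were -8.80 (adjusted p = 2.53e-12) for Nme7, 8.23 (adjusted p = 1.12e-08) for Egr3, 3.48 (adjusted p = 1.20e-10) for Rab7 and 3.87 (adjusted p = 1.20e-10) for Clstn1. In all, 3832 of 15585 tested genes had Camk2a 15 min lysates over 1 log2 unit from the other lysates, among them 324 strong and 202 firm genes. For 2527 of the 5722 interaction genes the lysates differed the same way by at least 0.5 times as much. The share over all genes tested is not reported here, so this count is a description.

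Far fewer genes were called between the lines in the lysates than in the purified RNA. Of 16073 genes tested in the lysates 105 (0.653%) were higher and 186 (1.16%) lower in Camk2a lysates, together 1.81%. Among them were 9 strong higher and 23 strong lower genes in the same direction. At an unadjusted p under 0.05 in edgeR's test there were 4244 genes. The lysate fit took 1 line difference for both sets, so a shift in the Camk2a 15 min lysates alone widens its error. A low count therefore does not show that the tables differ little. With DESeq2's size factors the split turned to 223 higher and 194 lower. The count rests on single libraries: leaving 1 lysate out gave 4 to 3090 genes, with 4 genes without Camk2a 15 min replicate 3 or without Camk2a 60 min replicate 1, and 3090 without Camk2a 60 min replicate 4. St6gal2, a sialyltransferase, averaged 21.4 CPM in Camk2a lysates and 4.63 CPM in Pvalb lysates (2.22 log2 units, adjusted p = 0.000920), and in the purified libraries it was higher by 2.72 ± 0.31 (adjusted p = 1.31e-06), so it was strong but not firm. Pvalb itself was higher in Camk2a lysates, with means of 36.6 CPM against 18.5 CPM in Pvalb lysates (1.04 log2 units, adjusted p = 0.00418), which is the direction opposite to the purified libraries.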

How the data were processed

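Per the labels, polyA RNA of dorsal hippocampus was extracted with RNeasy Mini columns from the purified fraction or the total lysate. Nextera XT libraries carry no strand mark, so a gene cannot be separated from an antisense or overlapping partner. The authors deposited raw read counts per gene symbol, in a table for each line and set. STAR 2.7.7a, featureCounts, DESeq2 and GRCm38 are named in the submitters' processing notes. For the annotation behind the counts: not given in the sources used here. Among counts of 1 to 20, 67.9% to 80.38% were even in purified libraries.

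Genes in all 4 tables (22654) were fitted in R 4.3.3 by the robust quasi-likelihood test of edgeR 4.0.16, after its filterByExpr step and TMM scaling, with the set as covariate and Benjamini-Hochberg adjustment at 0.05. CPM use each library's total over these 22654 genes. DESeq2 1.42.0 served for an alternative. The fits were tested on simulated counts. GC content, exon length and coordinates came from GENCODE M21 (95.771% of genes matched), promoters from RefSeq (GRCm38.p6). The names of 2 purified Pvalb 60 min columns match their group only, not 1 sample. The lowest reduced chi-square between replicates was 45.8, so none was a copy.

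The 56 gene lists (1108 of 1117 symbols were in all tables), the pairs and the members were chosen with earlier results of these data known. Named genes were the 4 markers, strong calls of smallest p or largest fold, list members of smallest p, the pairs, and leading genes of the lysate and interaction tests. Camkv, Sox6, Tsc22d3 and Vip were chosen after their values were seen. Some genes and pairs that the rule names are not reported here. Precision is given by the spread between libraries.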

Additional observations from a re-analysis of the deposited data

Results flagged for a closer look

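Single libraries stood apart from the rest of their group, by Dixon's test at 95%, in 21 of 312 tests on the genes of the text, where about 15.6 would be by chance. 7 of the 21 were in 1 library, Camk2a 60 min replicate 3. In purified Camk2a 60 min replicate 3 the highest value of its group was far from the rest for Adssl1 at 10.1 CPM against 4.46 to 4.91 CPM, Akr1c18 at 0.924 CPM against 0 to 0.0334 CPM, Cacna2d2 at 4.81 CPM against 0.653 to 1.13 CPM, Erbb4 at 0.776 CPM against 0 to 0.1 CPM, Gad1 at 133 CPM against 37.2 to 45.6 CPM, Gad2 at 45.4 CPM against 6.45 to 8.38 CPM and Slc32a1 at 9.61 CPM against 0.96 to 1.65 CPM. In purified Camk2a 60 min replicate 2 the highest value of its group was far from the rest for Dusp1 at 58.6 CPM against 28 to 32.2 CPM and Pvalb at 13.7 CPM against 4.62 to 6.02 CPM. In purified Camk2a 60 min replicate 2 the lowest value of its group was far from the rest for Ptprz1 at 2.64 CPM against 4.99 to 5.47 CPM. In purified Camk2a 60 min replicate 4 the highest value of its group was far from the rest for Cntnap4 at 7.8 CPM against 1.76 to 2.57 CPM. In purified Camk2a 60 min replicate 4 the lowest value of its group was far from the rest for Junb at 127 CPM against 150 to 153 CPM. In purified Camk2a 60 min replicate 1 the highest value of its group was far from the rest for Itpka at 1380.4 CPM against 879 to 948 CPM. In purified Pvalb 60 min replicate 3 the highest value of its group was far from the rest for Camk2a at 453 CPM against 184 to 280 CPM, Itpka at 180 CPM against 70.6 to 107 CPM and Ptprz1 at 138 CPM against 18.6 to 54.8 CPM. In purified Pvalb 60 min second unnumbered library the lowest value of its group was far from the rest for Cck at 116 CPM against 163 to 181 CPM and Nrgn at 211 CPM against 263 to 278 CPM. In purified Pvalb 60 min replicate 6 the highest value of its group was far from the rest for Arc at 83.5 CPM against 45.4 to 58.2 CPM. In purified Pvalb 15 min replicate 4 the lowest value of its group was far from the rest for Cox6a2 at 112 CPM against 190 to 200 CPM. In purified Pvalb 15 min replicate 1 the highest value of its group was far from the rest for Kcnc1 at 240 CPM against 163 to 174 CPM.

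The fold change differed between the time sets, at an adjusted p under 0.05 in edgeR's interaction test, for 51 of the 104 genes of the text. Over all genes tested the share was 36.7%, or 19.3% with offsets for GC content and gene length. Leading genes of this same test were among those named by rule, so their flags follow from that choice. The values are log2 fold changes, Camk2a over Pvalb, of the 60 min minus the 15 min set. They were positive for Arc (1.65), Baiap2 (2.04), Bok (1.49), C1ql2 (2.5), Cacnb3 (1.84), Camk2a (1.26), Camkv (1.94), Cck (1.4), Chrm1 (1.25), Clstn1 (3.87), Cox6a1 (0.86), Egr3 (8.23), Fibcd1 (2.99), Hpca (1.26), Hpcal4 (0.66), Itpka (1.49), Junb (1.35), Ldha (0.79), Ldhb (0.68), Neurod2 (1.8), Nrgn (1.3), Rab7 (3.48), Rgs14 (0.89), Slc17a7 (1.91), St6gal2 (1.5), Synpo (1.66) and Tmem212 (3.48). They were negative for Akr1c18 (-4.76), Cbln4 (-1.94), Crhbp (-2.03), Esrrg (-1.66), Fgf12 (-1.44), Gad1 (-1.33), Gad2 (-1.69), Gja1 (-1.84), Gria2 (-1.18), Gria4 (-2.3), Kcnc2 (-1.43), Kcnip1 (-1.56), Kcns3 (-1.59), Nme7 (-8.8), Ppargc1a (-1.71), Rab3b (-0.98), Rcan2 (-2.08), Scn2a1 (-1.09), Scn3b (-1.71), Sv2b (-0.87), Syt1 (-0.93), Tac1 (-2.55), Tsc22d3 (-0.84) and Vamp1 (-0.82). The part of the table differences in these values was not tested.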

How the results depend on the processing

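The count of 6508 genes in the purified comparison stayed within 1.5 times under DESeq2's test, its size factors, upper quartile scaling, no filter on low counts, GC and length offsets, a sex covariate and without the unnumbered libraries. It was 5779 to 6959 when 1 library was left out. The replicate block lowered it to 2884 (1263 higher, 1621 lower). The replicate numbers do not pair animals of the 2 lines, and their same-numbered purified libraries had correlated deviations of -0.025 to 0.053. Same-numbered purified and lysate libraries of 1 line had -0.104 to 0.126. Their sexes differed in 2 of 4 Pvalb 60 min pairs and in no pair of the other groups. In 9 of 13 purified libraries the own-numbered lysate correlated best, which is a hint from the data and not the design. Most of the exceptions were Pvalb 60 min libraries. With a block for line, set and number, purified minus lysate gave 6509 genes (3491 higher, 3018 lower). With the glial and vascular mean as covariate 1 gene was called (lower), with 1095 at an unadjusted p under 0.05, and 5 named genes changed sign with none called: Akr1c18 (1.72), Cox6a1 (-0.55), Id4 (0.32), Syt1 (0.56) and Vamp2 (-0.29). The covariate separates the lines completely.

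The interaction count of 5722 was 2895 with GC and length offsets, 1611 positive and 1284 negative, and 4984 to 5752 without 1 library. The 15 min set gave 2528 to 3704 genes without 1 library, with 2528 without Camk2a replicate 1; the 60 min set gave 7914 to 8271, and purified minus lysate 5986 to 7266. The lysate count of 291 was the least stable: 1909 with DESeq2's test (1027 higher, 882 lower), 35 with a sex covariate (17 higher, 18 lower), 0 with the replicate block in edgeR (530 at an unadjusted p under 0.05), and 4 to 3090 without 1 library. The cause was not tested. Cox6a1 and Vamp2 lost their calls with GC and length offsets (0.12 and 0.20) and the replicate block (0.43 and 0.32), and in the lysates Pvalb and St6gal2 lost theirs with the block (1.14 and 2.56). Leaving out 1 library ended no call of a named gene, while Gria1 passed without Camk2a 60 min replicate 4 (0.32) or Pvalb 15 min replicate 1 (0.28), and Vip without Camk2a 15 min replicate 1 (-1.26) or Pvalb 15 min replicate 1 (-1.14). The GC and length offsets for the interaction and for purified minus lysate, and the fits without the unnumbered libraries, were chosen after seeing the data. Depth limits the folds of genes near 0 in Camk2a libraries, such as Pthlh and Erbb4.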
